A study of Mus musculus with 31 samples.

Results

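The regions described here are 5 windows of the mouse genome around the endoderm regulators Gata4, Gata6, Sox17, Foxa2 and Cdx2, in primordial germ cells, from which eggs and sperm descend. The windows were set by position in build mm9: Gata4 at chr14:63800000-63890000, Gata6 at chr18:11035000-11100000, Sox17 at chr1:4470000-4510000, Foxa2 at chr2:147850000-147890000 and Cdx2 at chr5:148095000-148140000. They were compared with 52808 tiles of 50 kb that make up the rest of the genome, 52813 regions in all, and every peak of H3K27me3 and H3K9me3 that overlapped a window was taken. The cells were wild type, from a cross of C57BL/6 with GOF18delta_PE-EGFP, a line that carries a germ-cell fluorescent reporter, and they were sorted by flow cytometry. The groups were E13.5 female, E13.5 male and E10.5 cells (embryonic days), with 3 libraries of each mark in each group. E10.5 cells were pooled across embryos and have no sex in the labels, so each comparison of 1 sex with E10.5 cells mixes stage with sex.

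H3K27me3 is the histone mark that Polycomb repressive complex 2 lays down, and it lies in wide domains over silent regulators of development. Endoderm, the germ layer that gives rise to gut, liver and pancreas, is built by transcription factors of the GATA, SOX, FOX and CDX families. Germ cells keep such somatic regulators silent while their genome loses most of its DNA methylation. H3K9me3 marks heterochromatin and repeats.

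Gata4 and Gata6 encode zinc-finger factors that bind GATA sites and act in extraembryonic endoderm and heart. Sox17 encodes an HMG-box factor of definitive endoderm, and Foxa2 a forkhead pioneer factor of endoderm, node and floor plate. Cdx2 encodes a homeodomain factor of trophectoderm and hindgut. By gene order in the RefSeq table of GRCm38.p6, Gata4 lies between Neil2 and Blk, Gata6 between Mib1 and Rbbp8, Sox17 between Rp1 and Mrpl15, Foxa2 between Pax1 and Sstr4, and Cdx2 between Pdx1 and Urad. The peaks are in another build, so the place of a peak within a gene was not determined, and part of a neighbour may lie in a window.

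Promoters that carry H3K27me3 are often rich in CG dinucleotides, and the 250 bases before the start of a transcript are shown for Foxa2 and Cdx2 with each CG in capitals. They are from RefSeq on GRCm38.p6, minus strand, printed 5′ to 3′, and the table holds 3 starts of Foxa2 and 1 of Cdx2, of which the most upstream pair of Foxa2 starts is shown. Foxa2 start 1 lies at chr2:148046970-148047219, Foxa2 start 2 at chr2:148045949-148046198 and the Cdx2 start at chr5:147307250-147307499.
Foxa2 start 1: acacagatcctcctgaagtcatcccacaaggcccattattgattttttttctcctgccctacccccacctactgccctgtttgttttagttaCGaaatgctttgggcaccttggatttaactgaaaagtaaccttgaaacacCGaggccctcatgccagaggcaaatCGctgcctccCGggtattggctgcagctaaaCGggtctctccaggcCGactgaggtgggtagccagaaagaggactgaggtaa
Foxa2 start 2: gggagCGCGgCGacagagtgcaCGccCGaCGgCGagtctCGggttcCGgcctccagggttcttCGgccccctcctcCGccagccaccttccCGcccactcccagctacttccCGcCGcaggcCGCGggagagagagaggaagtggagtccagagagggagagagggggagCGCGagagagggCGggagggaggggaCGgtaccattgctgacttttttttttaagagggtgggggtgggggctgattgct
Cdx2: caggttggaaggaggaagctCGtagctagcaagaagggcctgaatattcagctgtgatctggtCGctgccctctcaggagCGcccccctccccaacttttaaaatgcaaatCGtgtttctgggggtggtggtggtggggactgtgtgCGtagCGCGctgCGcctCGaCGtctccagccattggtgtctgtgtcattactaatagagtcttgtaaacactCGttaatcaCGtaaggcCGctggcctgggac
Foxa2 start 1 had 6 CG dinucleotides (the letters C and G in that order, which read the same on both strands), start 2 had 20 and start 3 had 13, and Cdx2 had 13. Among 32841 promoters of that length in the table, 18% had at least 20, 31.5% at least 13 and 50.4% at least 6. The starts of Foxa2 thus spanned the range from a middling to a CG-rich promoter. Gata4, Gata6 and Sox17 are named without a sequence.

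Covered length, the kb of a window that lie in the merged peaks of a library, was read from the authors' lists of broad peaks, 1 list per library. The lists differed greatly in length. H3K27me3 peaks covered 1.56 to 5.22 Mb in E13.5 female, 0.159 to 3.99 Mb in E13.5 male, and 2.08, 19.9 and 35.5 Mb in E10.5 libraries. The list of E13.5 male replicate 2 stood apart, with 359 peaks against 1703 or more in each of the other H3K27me3 lists. E10.5 replicate 2, with 2.08 Mb, was shorter than 4 of the 6 E13.5 lists. The peaks of E10.5 replicate 3 were called against an input of the H3K9me3 experiment, per their names in the file. The lists hold no expression values, so the labelled cell type could not be checked against marker genes. Sequencing depth is unknown, because read counts are not given either, and it cannot be told apart from the amount of the mark in the length of a list. Whether replicates stem from separate animals is not in the labels, and the p-values speak only of the spread among these libraries, which may be technical.

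H3K27me3 peaks lay in all 5 windows at both stages. Each window had at least 1 kb in peaks in 8 of 9 H3K27me3 lists, every list other than E13.5 male replicate 2, which held 0.37 kb in the Gata4 window and no peak in the other windows. Of all regions, 0.269% were covered to that extent in at least 8 lists, 0.0284% in all 9 lists and 0.92% in all 3 E10.5 lists. These shares set windows of 40 to 90 kb beside tiles of 50 kb, and 1 kb is reached more easily in a longer window. The windows were chosen with earlier results of these data known, so the shares are not an independent test. Summed over the windows, the peaks covered 11.4, 26.9 and 15.5 kb in E13.5 female, 19.6, 0.37 and 27.2 kb in E13.5 male, and 85.3, 31.0 and 108 kb in E10.5 libraries. Every E10.5 sum was above every E13.5 sum. The number of peaks did not follow the covered length: 18 to 30 peaks made up the female sums, 1 to 28 the male sums and 14 to 25 the E10.5 sums, at 0.635 to 0.896, 0.37 to 0.978 and 2.22 to 5.69 kb per peak.

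**Figure D1:**
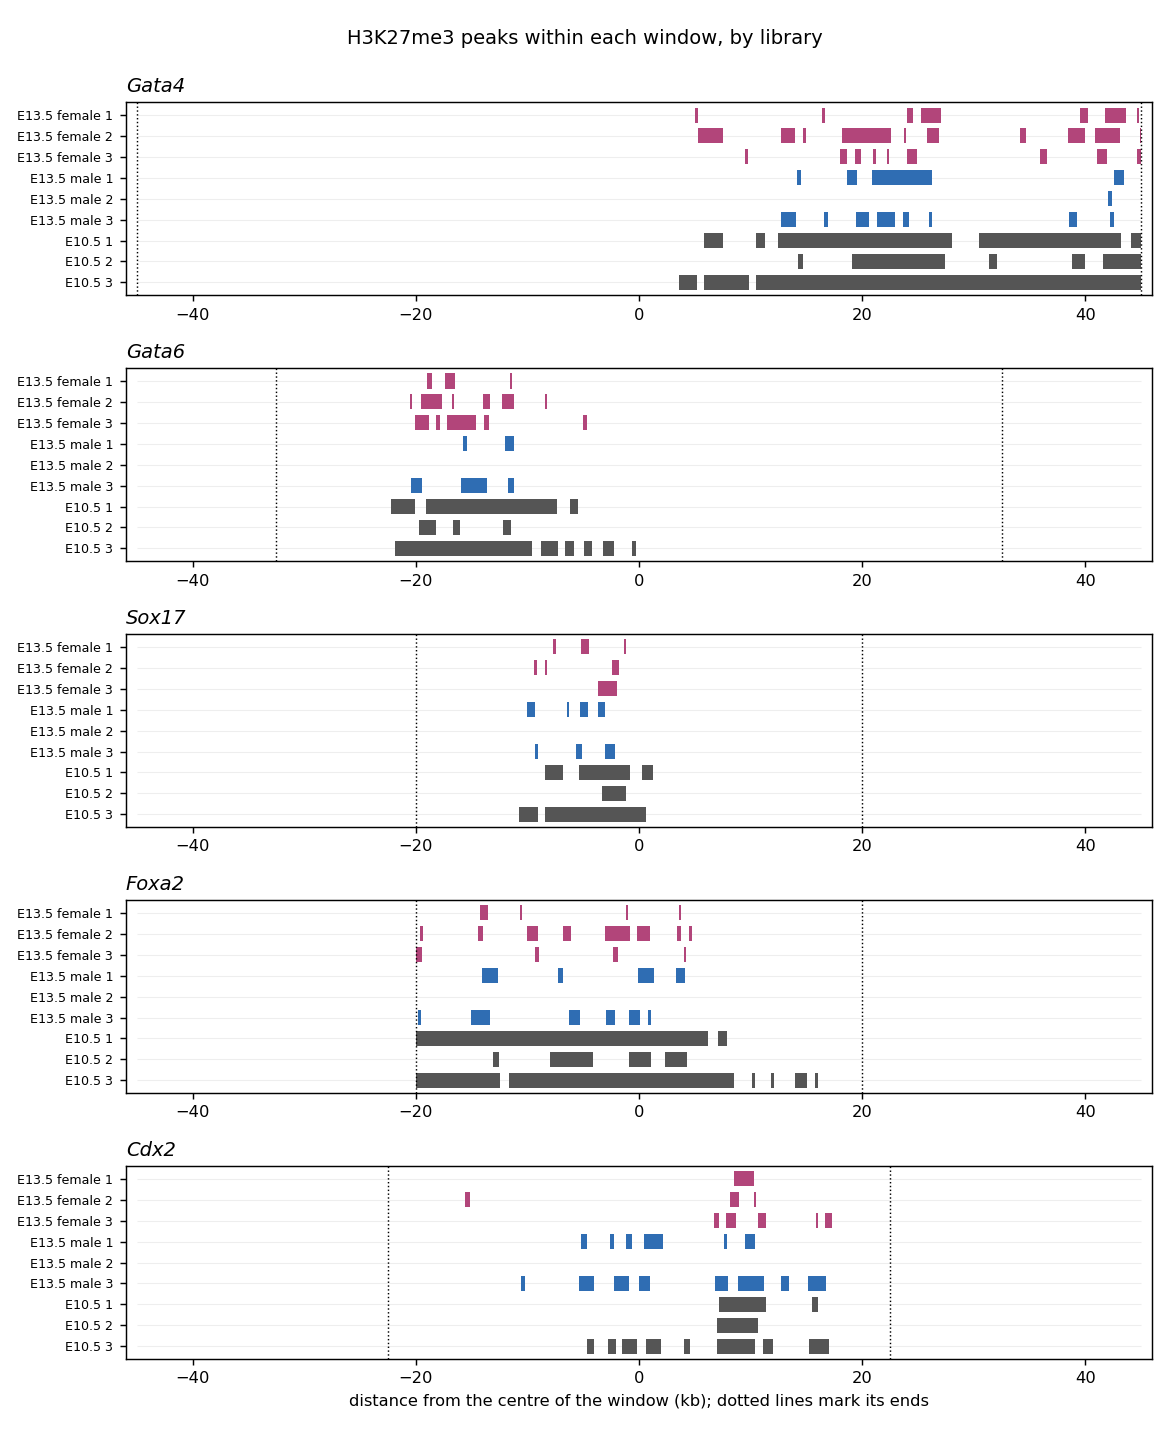
Peaks of H3K27me3 in each window, drawn by distance in kb from its centre, with 1 row for each of 3 E13.5 female, 3 E13.5 male and 3 E10.5 libraries and dotted lines at its ends. E10.5 libraries had wider blocks, with short pieces beside them in some windows, and E13.5 libraries several short pieces, mostly in the same places. In Cdx2, 2 male libraries, E10.5 replicate 3 and E13.5 female replicate 2 had pieces well to the left of the main block.

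The Gata4 window held the most kb in peaks at E10.5, with 28.6 ± 13.4 kb (SD, n = 3). Peaks covered 5.70, 13.85 and 4.50 kb in E13.5 female, 7.61, 0.37 and 6.48 kb in E13.5 male, and 31.7, 13.93 and 40.1 kb in E10.5 libraries. The stages did not overlap, but E13.5 female replicate 2 lay just under E10.5 replicate 2. All cover lay in the last 41.4 kb of the 90-kb window, from position 63848611, and peaks of 5 libraries ran past its end, by up to 2.38 kb. The stretch common to all 3 E10.5 libraries was longest at chr14:63864061-63872366, with 8.31 kb, and no stretch was common to more than 4 of the 6 E13.5 libraries.

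Gata6, the other GATA gene of the set, had fewer kb in peaks than Gata4 in 8 of 9 libraries. Peaks covered 1.53, 4.06 and 4.87 kb in E13.5 female, 1.13, 0 and 3.84 kb in E13.5 male, and 14.6, 2.87 and 16.6 kb in E10.5 libraries. E10.5 replicate 2 lay within the E13.5 range, so the stages overlapped. Cover was confined to 22 kb of the 65-kb window in these 9 lists, at chr18:11045254-11067260.

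Sox17 had the least cover at E13.5 among the 5 windows by group mean. Peaks covered 1.18, 1.06 and 1.70 kb in E13.5 female, 2.29, 0 and 1.69 kb in E13.5 male, and 7.15, 2.18 and 10.8 kb in E10.5 libraries. Every female library lay below every E10.5 library, whereas E13.5 male replicate 1 lay above E10.5 replicate 2. The stretch shared by all E10.5 libraries was 2.18 kb at chr1:4486662-4488842.

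Foxa2 was the window most filled with peaks at E10.5. Peaks covered 1.29, 6.48 and 1.57 kb in E13.5 female, 4.10, 0 and 5.14 kb in E13.5 male, and 27, 8.39 and 29.6 kb in E10.5 libraries. As a share of the 40-kb window, female libraries averaged 7.79 ± 7.30%, male libraries 7.70 ± 6.79% and E10.5 libraries 54.2 ± 28.9% (SD, n = 3 each). The stages did not overlap. In E10.5 replicate 1 a single peak of 28.7 kb held nearly all of the cover, and peaks of 3 libraries began up to 3.43 kb before the window. The longest stretch common to the E10.5 libraries, 3.89 kb at chr2:147862024-147865912, held parts that lay in no E13.5 peak.

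In Cdx2, part of the E13.5 cover lay away from the E10.5 peaks. Peaks covered 1.73, 1.41 and 2.81 kb in E13.5 female, 4.43, 0 and 10.0 kb in E13.5 male, and 4.87, 3.67 and 10.7 kb in E10.5 libraries. E13.5 male replicate 3 came close to E10.5 replicate 3, and the female group lay wholly below the E10.5 libraries, whereas the male group did not. The E10.5 libraries shared a block of 3.29 kb at chr5:148124621-148127905. Outside any E10.5 peak lay 4.22 kb of E13.5 peaks, in 10 stretches, of which the longest, of 0.737 kb, was at chr5:148130216-148130952 in 1 male library.

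**Figure D2:**
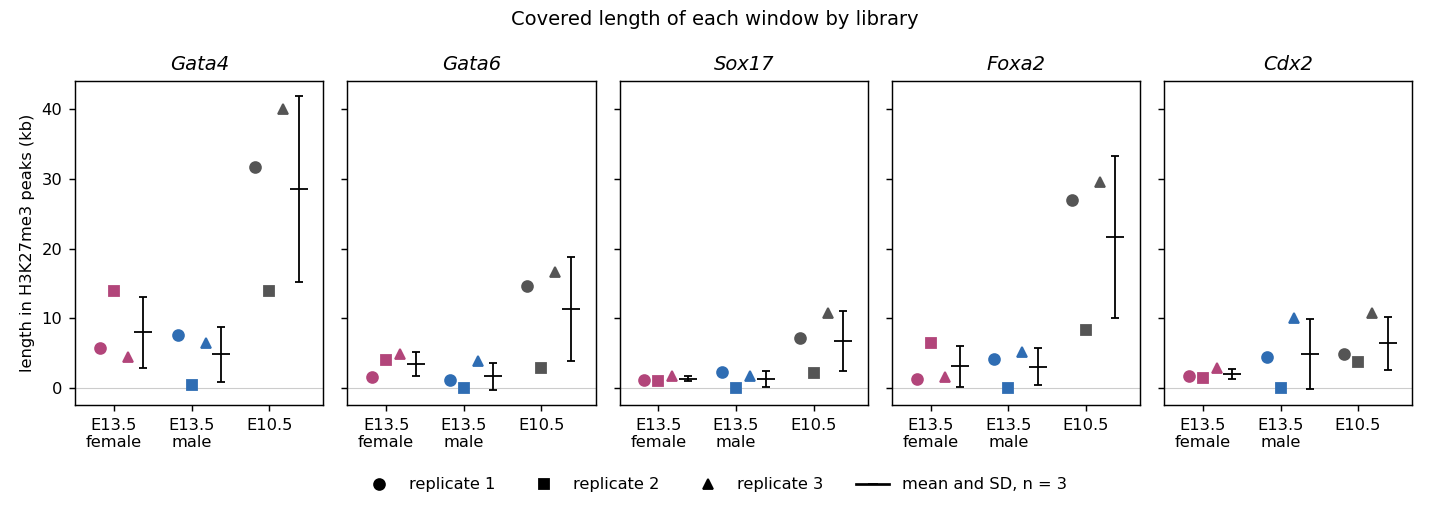
Length of each window in H3K27me3 peaks (kb) for each library, with the replicate number as the symbol and bars for mean and SD (n = 3). Each Gata4 and Foxa2 value at E13.5 lies below each at E10.5, and the symbols of Gata6, Sox17 and Cdx2 overlap between the stages.

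The E13.5 peaks lay largely where E10.5 peaks lay. Of the length covered in any E13.5 library, 96.8% in Gata4, 98.4% in Gata6, 100% in Sox17 and Foxa2 and 69.5% in Cdx2 was also in a peak of an E10.5 library. In the other direction, E13.5 peaks took in 49.4% of the E10.5 length in Gata4, 45.4% in Gata6, 42.7% in Sox17, 39.1% in Foxa2 and 84.0% in Cdx2. These shares depend on the lengths of the lists and on the number of libraries joined, 6 at E13.5 and 3 at E10.5. Between the sexes, female libraries covered 78.7% of the male length in Gata4 and male libraries 51% of the female length. In Cdx2, where the female length was 4.99 kb and the male length 11.8 kb, female libraries covered 25.2% of the male length and male libraries 59.6% of the female length. No position in any of the windows lay in peaks of all 6 E13.5 libraries.

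Peaks in the windows were wider at E10.5, and in 4 of 5 windows the stages did not overlap in their widest peak. The widest peak averaged 2.50 ± 1.94 kb at E13.5 and 20.3 ± 14.9 kb at E10.5 in Gata4, and 1.26 ± 0.801 kb at E13.5 and 17.6 ± 12.6 kb at E10.5 in Foxa2 (SD, n = 6 and 3). Corresponding means were 1.40 and 8.51 kb in Gata6, 0.781 and 5.26 kb in Sox17, and 1.26 and 3.78 kb in Cdx2. E13.5 male replicate 2 had no peak in Gata6, Sox17, Foxa2 and Cdx2 and enters these means as 0 kb, which lowers them. The highest E13.5 value was 5.37 kb against a lowest E10.5 value of 8.31 kb in Gata4, 1.70 against 2.18 kb in Sox17, 2.24 against 3.89 kb in Foxa2 and 2.34 against 3.40 kb in Cdx2. In Gata6 they were 2.55 and 1.50 kb. Of all 3969 regions with cover in at least 3 lists, 9.93% had every E13.5 library below every E10.5 library in this measure. Median peak width over whole lists was 283 to 553 bp at E13.5 and 728 to 923.5 bp at E10.5, so peaks were also wider elsewhere. Widths were not tested.

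**Figure D3:**
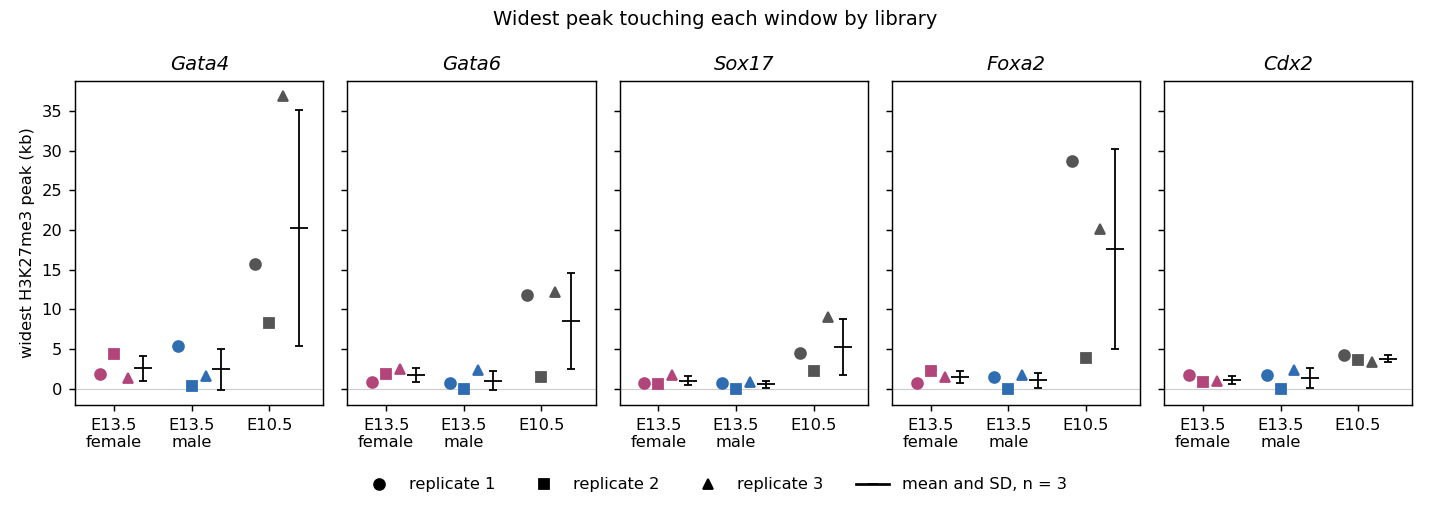
Width of the widest H3K27me3 peak that touches each window (kb) in each library, with mean and SD (n = 3). E13.5 male replicate 2 stands at 0 in Gata6, Sox17, Foxa2 and Cdx2, where it had no peak. The 3 E10.5 libraries stand above all E13.5 libraries in Gata4, Sox17, Foxa2 and Cdx2, and E10.5 replicate 2 is among the E13.5 values in Gata6.

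The change of cover between the stages did not pass the test in any of the 5 windows. Cover was tested with limma on log2(percent of the window in peaks + 1), a scale that understates the change of low values, in 1 fit of the 9 libraries over all 3969 regions, with Benjamini-Hochberg adjustment. E13.5 minus E10.5 was -2.20 ± 1.14 in Gata4 (SE, adjusted p = 0.133), -1.92 ± 1.13 in Gata6 (0.178), -2.02 ± 1.13 in Sox17 (0.158), -2.97 ± 1.13 in Foxa2 (0.0803) and -1.27 ± 1.14 in Cdx2 (0.357). The windows called lower were thus 0 of 5, beside 0.0252% of all regions, while 1543 regions and, of the windows, Foxa2 had an unadjusted p under 0.05. The median over all regions was -1.38, and 91.7% of regions were lower at E13.5, so that Cdx2 was above the median and the other windows below it. This place depends on the filter for cover in at least 3 lists. Without it the median over 10300 regions was -0.545, 81.4% were lower, and Cdx2 too was below the median, at -1.27. On simulated data of the same size, the fit found 18.5% of changes of 2 and 88.5% of changes of 4 on this scale. Only 200 of 3969 tiles were changed there, whereas 91.7% of regions were lower at E13.5 in the authors' lists. The share of changes that the fit finds in those lists was not tested.

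By single libraries, every E13.5 value was below every E10.5 value in 2 of 5 windows, Gata4 and Foxa2, and this held for 8.36% of all regions. Two-sided exact permutation tests of the mean percent covered over 84 splits gave p = 0.0119 for Gata4 and Foxa2, the smallest possible value, 0.0238 for Sox17, 0.0476 for Gata6 and 0.262 for Cdx2. Adjusted over all regions, these exact permutation p-values were 0.332 for Cdx2 and 0.131 for the other windows, so that even the smallest possible value could not pass.

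Each sex was also set against the E10.5 libraries, which both comparisons share. Female minus E10.5 was -1.75 ± 1.31 in Gata4, -1.34 ± 1.31 in Gata6, -1.83 ± 1.31 in Sox17, -2.77 ± 1.31 in Foxa2 and -1.40 ± 1.32 in Cdx2 on the log2 scale (SE). Male minus E10.5 was -2.65 ± 1.31 in Gata4, -2.49 ± 1.31 in Gata6, -2.20 ± 1.31 in Sox17, -3.17 ± 1.31 in Foxa2 and -1.14 ± 1.32 in Cdx2 (SE). In limma none of these 10 changes passed, with adjusted p-values of 0.216 to 0.478 for female and 0.129 to 0.470 for male libraries, and 0% of all regions were called in either comparison, although 882 and 1405 regions had an unadjusted p under 0.05. Every female library lay below every E10.5 library in 4 of 5 windows, all but Gata6, and in 10.6% of all regions. For male libraries this held in 2 of 5 windows, Gata4 and Foxa2, and in 12.1% of all regions. With 3 libraries a side, the smallest exact permutation p is 0.1.

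Between the sexes at E13.5, no difference passed in limma, where the adjusted p was 1 in all 5 windows, 0% of all regions were called and 46 had an unadjusted p under 0.05. Female minus male was 0.91 ± 1.31 in Gata4, 1.15 ± 1.31 in Gata6, 0.37 ± 1.31 in Sox17, 0.40 ± 1.31 in Foxa2 and -0.27 ± 1.32 in Cdx2 on the log2 scale (SE). These tests do not show that the sexes were alike. Female and male values did not part in any window (0 of 5), while every female library lay below every male library in 0.479% of all regions and above it in 6.35%. Leaving out E13.5 male replicate 2, with its 359 peaks, the Gata4 difference was 0.0268, the Gata6 difference 0.44, the Sox17 difference -0.48 and the Foxa2 difference -0.81, and Cdx2 cover in male minus E10.5 libraries became 0.19. The Foxa2 difference between the sexes was also -0.24 without E13.5 female replicate 2, and that of Cdx2 was 0.12 without E13.5 male replicate 1 and 0.68 without E13.5 male replicate 3. The direction between the sexes in Sox17, Foxa2 and Cdx2 thus changed with single libraries, and the size in Gata4 and Gata6 moved by over 1.5 times.

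Length of the lists moved with these differences. Cover of a window was set against the cover of the whole genome by the same list, as a fold. Gata4 had 107, 77.9 and 32.0 fold in E13.5 female, 90.2, 68.3 and 47.7 fold in E13.5 male, and 46.8, 196 and 33.1 fold in E10.5 libraries. Foxa2 had 54.5, 82.0 and 25.2 fold in E13.5 female, 110, 0 and 85.1 fold in E13.5 male, and 89.7, 266 and 55.1 fold in E10.5 libraries. Summed over the windows, the fold was 40.5, 140 and 28.6 in the E10.5 lists, highest in the shortest of them, replicate 2. It was 21.9 in the shortest list of all, E13.5 male replicate 2. Whether the fold removes the effect of list length was not tested. On this scale the groups overlapped in 5 of 5 windows in each of the 4 comparisons, so that 0 of 5 were set apart. Over all regions, every E13.5 library lay below every E10.5 library in 4.36% and above it in 0.63%, with 7.46 and 6.7% for female libraries alone and 7.94 and 2.39% for male libraries alone. Every female library lay below every male library in 0.932% and above it in 7.08%.

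The Cdx2 window stood at 65.2, 15.9 and 40.0 fold in E13.5 female, 105, 0 and 148 fold in E13.5 male, and 14.4, 103 and 17.7 fold in E10.5 libraries. Its highest fold was thus in a male library, E13.5 male replicate 3. Gata6 spanned 31.6 to 47.9 fold among female, 0 to 39.1 fold among male and 19 to 55.9 fold among E10.5 libraries. Sox17 spanned 13.4 to 49.8 fold among female, 0 to 61 fold among male and 20.1 to 69.1 fold among E10.5 libraries. Wherever a list had a peak in a window, at most 2.04% of the tiles were covered to as high a percentage by that list. This share is bounded by the tiles with any cover, 0.585% in E13.5 male replicate 2 to 15.1% in E10.5 replicate 3. For Gata4 in E13.5 male replicate 2 it was 0.532%, near that bound. In limma on log2(fold + 1), E13.5 minus E10.5 was -0.04 in Gata4, -0.77 in Gata6, -0.86 in Sox17, -1.77 in Foxa2 and -0.05 in Cdx2, with adjusted p-values of 0.658 to 0.992, and the median over all regions was -0.55. Without E13.5 male replicate 2, the 359-peak list, Foxa2 was -0.67 ± 0.65 on this scale (SE, adjusted p = 0.747), Gata4 -0.05, Gata6 and Sox17 0.04 and Cdx2 1.11.

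**Figure D4:**
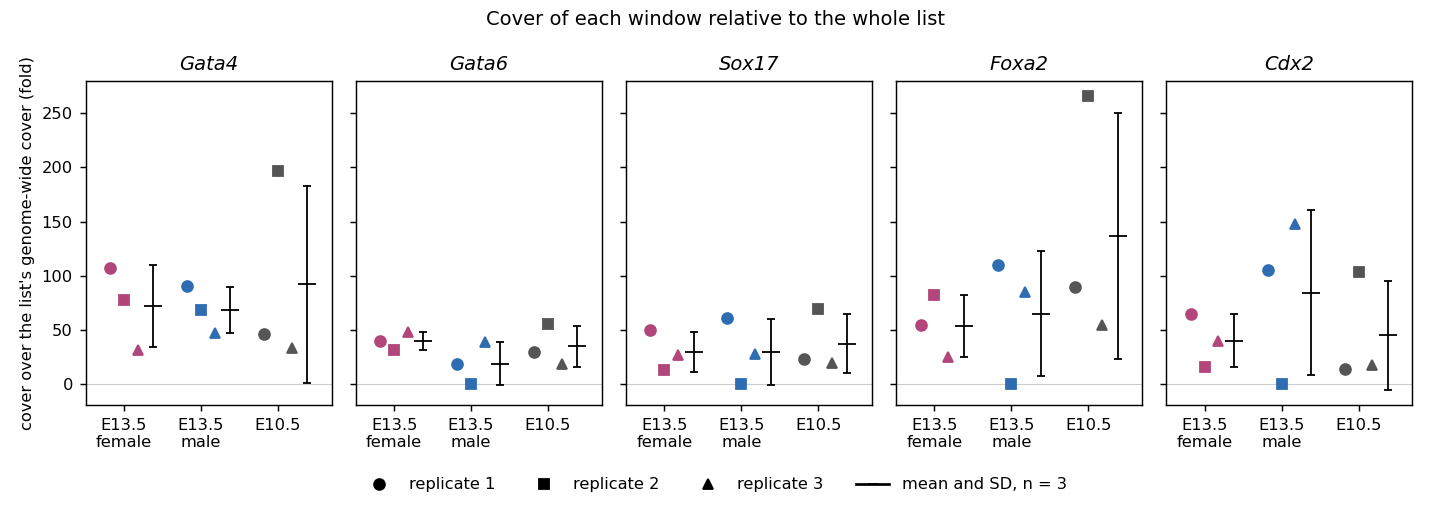
Cover of each window as a fold of the genome-wide cover of the same H3K27me3 list, by library, with mean and SD (n = 3). E10.5 replicate 2 is the highest point in Gata4, Gata6, Sox17 and Foxa2, the E13.5 male replicate 3 point is the highest in Cdx2, and the groups overlap in every window.

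With lists cut to the same number of peaks, 4 of 5 windows passed. When each list kept its 1703 top-ranked peaks by the authors' score (359 in E13.5 male replicate 2), Gata4 had 4.71, 3.56 and 2.21 kb in E13.5 female, 0.351, 0.37 and 0.329 kb in E13.5 male, and 16.5, 13.9 and 34.5 kb in E10.5 libraries. Foxa2 had 1.08, 0.808 and 0 kb in E13.5 female, 1.38, 0 and 2.09 kb in E13.5 male, and 26.2, 8.39 and 27.7 kb in E10.5 libraries. Every E13.5 value of both genes stayed below every E10.5 value. The same held for Gata6, at most 0.772 kb at E13.5 and at least 2.14 kb at E10.5. It also held for Sox17, at most 1.06 kb at E13.5 and at least 2.18 kb at E10.5. Cdx2 overlapped, with 0 kb in E10.5 replicate 1. The share of all regions that part in this way on top-ranked peaks was not determined. These values thus do not show whether the windows differ from other regions in it.

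E13.5 minus E10.5 was then -3.18 ± 0.63 in Gata4 (SE, limma adjusted p = 0.00446), -2.31 ± 0.67 in Gata6 (0.0226), -3.20 ± 0.73 in Sox17 (0.00746), -4.17 ± 0.80 in Foxa2 (0.00413) and -0.85 ± 0.90 in Cdx2 (0.519). Calls of lower cover were made in 22.1% of the 1419 regions tested in this way, where the median was -0.73. The kept peaks still covered 0.159 to 1.40 Mb at E13.5 and 2.08 to 8.47 Mb at E10.5, as E10.5 peaks were wider. Without the 359-peak list, 3 of 5 windows passed on top-ranked peaks, where 18.6% of regions did, and the adjusted p of Gata6 was 0.0528. Leaving out E10.5 replicate 2 from the full lists gave 4 of 5, all but Cdx2, where 76.5% of 3868 regions were.

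Set apart by sex, female libraries were called lower than E10.5 libraries in 3 of 5 windows on top-ranked peaks (14.9% of regions) and in 2 of 5 without E10.5 replicate 2 (64.6%). Foxa2 and Sox17 were among them both times. Male libraries were called lower in 3 of 5 windows on top-ranked peaks (16.2%) and in 4 of 5 without E10.5 replicate 2 (76.6%). Without the 359-peak list, female libraries were called in 3 of 5 windows on top-ranked peaks (14.5%) and male libraries in 2 of 5 (7.11%).

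**Figure D5:**
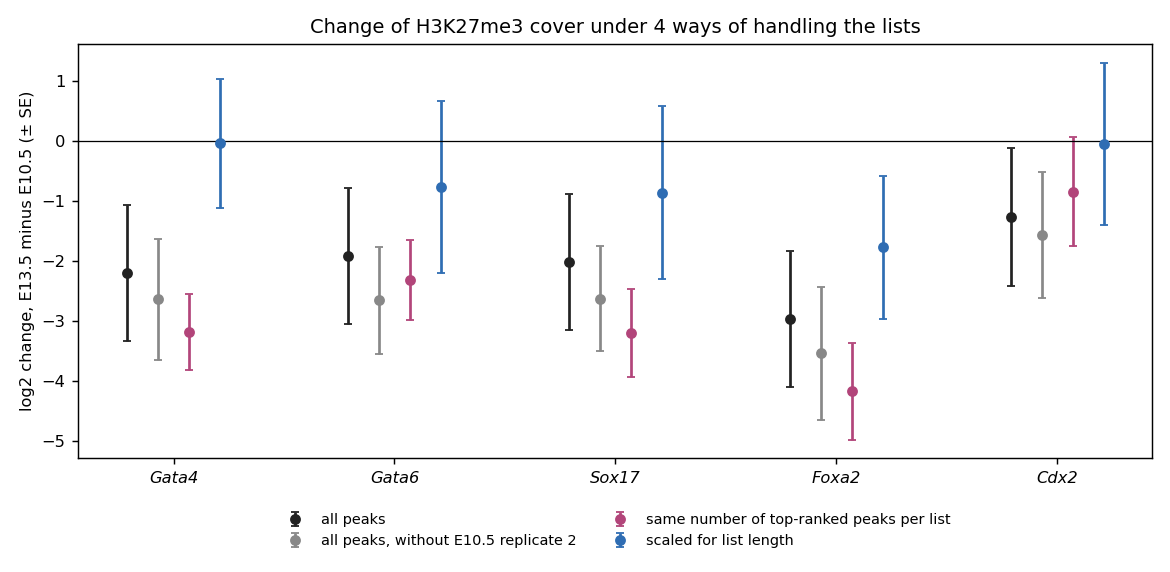
Change of H3K27me3 cover, E13.5 minus E10.5, in limma on the log2 scale for each window, with SE, under 4 ways of handling the lists. Values below 0 mean less cover at E13.5. With lists scaled for length, Gata4 and Cdx2 stand near 0, at -0.04 and -0.05, while with top-ranked peaks Foxa2 stands at -4.17. Whether scaling removes the effect of list length was not tested.

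Column 7 of the lists is 1 of the authors' scores per peak, of unknown scale, and it is read here only within a list. The median of the Gata4 peaks was above that of the whole list in 3 of 3 female, 0 of 3 male and 3 of 3 E10.5 lists. Among lists with a peak, the Sox17 median was above it in 2 of 3 female, 0 of 2 male and 3 of 3 E10.5 lists, by most in E10.5 replicate 3, with 25.2 against 18. For Foxa2 this held in 3 of 3 female, 1 of 2 male and 1 of 3 E10.5 lists. For Gata6 it held in 1 of 3 female, 2 of 2 male and 2 of 3 E10.5 lists, and for Cdx2 in 1 of 3 female, 1 of 2 male and 3 of 3 E10.5 lists. Some Foxa2 margins were small either way, with 18.61 against 18.59 in E13.5 female replicate 1 and 23.81 against 23.98 in E10.5 replicate 2. In E10.5 replicate 3 the median of 6 Foxa2 peaks was 16.11 against 17.97, while the highest was 27.54.

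No window held an H3K9me3 peak in any of the 9 lists, so no test of this mark was possible in them. The same held for 55.1% of all regions. It was also so for 74.0% of 40-kb tiles, the length of the Sox17 and Foxa2 windows, that had H3K27me3 in at least 3 lists, and for 54.9% of such tiles of 90 kb, the length of the Gata4 window. Over the 9 lists, the nearest H3K9me3 peak lay 171 to 2499 kb from the Gata4 window, 37.8 to 549 kb from Gata6, 36 to 857 kb from Sox17, 99.2 to 853 kb from Foxa2 and 25.1 to 1103 kb from Cdx2. The closest of these, 25.1 kb from Cdx2, was in E13.5 male replicate 3. The H3K9me3 lists also differed in length, from 0.441 Mb in E10.5 replicate 3 (1107 peaks) to 78.9 Mb in E13.5 male replicate 1 (56632 peaks). The longest distance from Gata4, Sox17, Foxa2 and Cdx2 was in E10.5 replicate 3 each time. Absence of peaks and distance to them thus depend on the lengths of the lists. Sox17 had a median distance of 37.4 kb, the shortest of the 5, and Foxa2 the longest, 396 kb.

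Likeness of H3K27me3 cover was measured as the Euclidean distance in percent covered over the 9 lists. Among the windows, Gata6 and Sox17 were closest to each other, at 8.19 percentage points, and Foxa2 and Cdx2 farthest apart, at 78.5. Tiles most like Gata4 were chr18:77050001-77100000, chr1:42750001-42800000 and chr2:104950001-105000000, at 9.16 to 10.3 points. For Gata6 they were chr1:186550001-186600000, chr18:64450001-64500000 and chr12:105700001-105750000, at 4.08 to 5.58 points. Tiles most like Sox17 were chr15:85400001-85450000, chr7:77400001-77450000 and chr8:96700001-96750000, at 4.13 to 5.48 points.

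Foxa2 was most like chr15:98600001-98650000, chr3:88000001-88050000 and chr11:96000001-96050000, at 10.9 to 15.4 points. The first of these averaged 5.56% over female, 6.42% over male and 55.1% over E10.5 libraries. Cdx2 was most like chr11:57600001-57650000, chr5:118600001-118650000 and chr4:149450001-149500000, at 11 to 13.3 points, and these tiles averaged 0.708 to 4.35% in female libraries and 6.81 to 9.77% in male libraries. All positions are in mm9, and no gene was assigned to the tiles.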

How the data were processed

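Both marks were profiled by native ChIP-seq adapted to few cells, and per the labels' protocols a reaction took 1000 sorted cells, chromatin cut with micrococcal nuclease and 250 ng of antibody, with paired reads of 100 bp. Of 31 samples, the 18 ChIP libraries, with a peak list each, entered the analysis, and 13 inputs were not used here. Peaks were called per library against an input, per the peak names in the files. Build mm9 and the tools MACS2 2.1.0, BWA 0.7.5a, deepTools 3.3.0, CASAVA 1.8.4, SAMtools and Picard come from the submitters' processing notes, which state no roles. The peak thresholds used are not given in the sources. The deposited score columns are the authors' own values per peak. Their scale is unknown, since column 9 was above column 8 in 100% of peaks, so peaks were ranked by them within lists. As an alternative, 1 fixed minimum of 20 in column 9 was set for every list, which also compares scores between lists.

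From the lists, peaks on chromosomes 1 to 19, X and Y were merged (19 of 265293 peaks lay elsewhere), and covered bases were counted in the windows and in all full 50-kb tiles outside them. The genome length was taken as 2641.51 Mb, the sum of the last peak ends. Regions with cover in at least 3 of the 9 lists of a mark were tested with limma 3.58.1 (R 4.3.3, eBayes with trend) on log2(percent + 1), at a Benjamini-Hochberg adjusted p of 0.05, without a replicate block. E13.5 minus E10.5 takes the mean of the female and male coefficients. The scripts were tested on simulated data. Exact permutation tests, pseudocounts of 0.1 and 5 percent, no filter, 100-kb tiles, scaling by list length, score and rank filters, a replicate block and leaving out each library were alternatives. The 5 genes are always named, with the 3 tiles nearest to each in cover and the neighbouring genes. The members and lists were chosen with earlier results of these data known. The reference, GRCm38.p6, gave gene order and promoter sequences only.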

Additional observations from a re-analysis of the deposited data

How the results depend on the processing

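None of the 5 windows passed for E13.5 minus E10.5 with either other pseudocount, without a filter, with 100-kb tiles, with peaks at or above the median of column 7, after scaling for list length or with exact permutation tests. In the last, even the smallest possible exact permutation p, 0.0119, was 0.131 after adjustment, so no window could pass. Correlations of deviations from the group mean were -0.278 to 0.249 for same-numbered libraries and -0.355 to 0.376 for others. With 3 libraries per group of unequal list length, they cannot tell whether replicate numbers pair the libraries. A replicate block in limma left the count at 0 of 5, with adjusted p-values of 0.0639 in Foxa2 to 0.316 in Cdx2. Regions called lower numbered 1 of all 3969 regions, 21 of 3969 with a pseudocount of 5 percent and 313 of 1419 with top-ranked peaks. They numbered 1314 of 2332 with a score of at least 20 and 2958 of 3868 without E10.5 replicate 2. After scaling, 1 region was called higher, with none lower. The unknown depth of the libraries limits every value, and the cause of these changes was not tested.

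A fixed minimum of 20 in column 9, whose scale between lists is unknown, kept 0.829 to 1.52 Mb in E13.5 female, 0.136 to 1.52 Mb in E13.5 male, and 16.9, 2.08 and 27 Mb in E10.5 lists, so that E10.5 replicate 2, in full shorter than 4 of the 6 E13.5 lists, was longer than all 6, and the counts under this minimum are given as values only. With this minimum, E13.5 minus E10.5 was -3.03 in Gata4, -3.06 in Gata6, -3.26 in Sox17, -3.94 in Foxa2 and -2.27 in Cdx2. Here 5 windows passed (3 female, 4 male against E10.5), beside 56.3% of 2332 regions called lower (25.3% female, 27.7% male). With top-ranked peaks E13.5 minus E10.5 was -3.18, -2.31, -3.20 and -4.17 in the first 4. These passed (3 female, 3 male), beside 22.1% of regions called lower (14.9% female, 16.2% male). Chosen after seeing the data, the same filters were repeated without the 359-peak list. Top-ranked peaks then gave -3.19 in Gata4, -3.07 in Sox17 and -3.77 in Foxa2. There 3 windows passed (3 female, 2 male), beside 18.6% of regions called lower (14.5% female, 7.11% male). The score filter gave -2.84 in Gata4, -2.90 in Gata6, -3.13 in Sox17 and -3.47 in Foxa2. There 4 windows passed (1 female, 0 male), beside 28.6% of regions called lower (10.1% female, 0% male). Scaled cover without that list was 0.0365 in Gata6, 0.0387 in Sox17, -0.67 in Foxa2 and 1.11 in Cdx2.

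With 1 library left out in turn, E13.5 minus E10.5 ranged over -2.63 to -1.76 in Gata4, -2.65 to -1.51 in Gata6, -2.63 to -1.57 in Sox17, -3.54 to -2.36 in Foxa2 and -1.74 to -0.60 in Cdx2. Between 0 and 4 windows passed (0 to 2 female, 0 to 4 male, 0 to 0 between the sexes), and those above 0 were all without E10.5 replicate 2. Without that library 76.5% of regions were called lower (64.6% female, 76.6% male). Male minus E10.5 in Cdx2 ranged over -2.08 to 0.19, and female minus male over 0.0268 to 1.40 in Gata4, 0.44 to 1.83 in Gata6, -0.48 to 0.89 in Sox17, -0.81 to 1.08 in Foxa2 and -1.60 to 0.68 in Cdx2.

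Other directions turned in differences that did not pass with the full lists of all libraries, and none of the turned values passed. Of these differences, male minus E10.5 in Sox17 passed in limma with top-ranked peaks (adjusted p = 0.0166) and with the score filter (0.0258). It also passed without E10.5 replicate 2 (0.0138). In Gata6, female minus E10.5 passed in limma with the score filter (adjusted p = 0.0369). Female minus E10.5 after scaling was 0.30 in Gata6 and 0.20 in Cdx2, also without the 359-peak list. Without that list, male minus E10.5 was 0.35 in Sox17 and 2.02 in Cdx2 after scaling and 0.12 in Cdx2 with top-ranked peaks. Female minus male after scaling was -0.0419 in Gata4 and 0.51 in Cdx2, and without the 359-peak list -0.0233 in Gata4, -0.62 in Sox17 and -0.98 in Foxa2. With top-ranked peaks it was -0.00132 in Gata6 and -0.44 in Foxa2, and without that list -0.32 and -1.24. With the score filter it was -0.56 in Foxa2, and without that list -1.50 in Foxa2 and -0.0222 in Gata6. The pseudocount of 0.1 percent gave 0.62 in Cdx2, and the mean percent covered gave -0.0267 percentage points in Sox17.

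At least 10% of the window was covered in 4 lists for Gata4, 2 for Gata6, 2 for Sox17, 6 for Foxa2 and 3 for Cdx2, where 8 lists held at least 1 kb, and on the fold scale the windows whose groups did not overlap were 0 in all 3 comparisons with E10.5.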
